A study of Homo sapiens with 5 samples.

Results

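The 8 genes described here encode readers of acylated histone lysines, and all 8 were found by symbol among 20037 protein-coding genes in the RefSeq annotation of GRCh38 (hg38). They are defined by name and function, and the rule uses no measured value, although earlier results of these data were known when the set was chosen. BRD2 and BRD3 belong to the BET family. BRD7, BRD8 and BRD9 are bromodomain genes outside that family, and DPF1, DPF2 and DPF3 encode double PHD finger proteins. Each gene was searched for listed peaks inside it and within 1 kb of its ends. The data were peak lists of 5 CUT&Tag libraries of HepG2, a human liver cancer cell line, with 1 library per group. CUT&Tag places a transposase at antibody-bound chromatin, so a listed peak is a place with more tagged fragments than a background estimate. Flag antibodies were used for ENL, as wild type protein or with the Y78A substitution, and histone antibodies for H3K9bhb (β-hydroxybutyrylation), H3K9cr (crotonylation) and H3K9ac (acetylation). Per the series' design text, the Flag and H3K9bhb libraries came from HepG2 cells with stable expression of Flag-tagged ENL. The sources used here do not give the cells behind the H3K9ac and H3K9cr libraries, the level of the tagged protein, whether the cells kept their own ENL, or the number of clones.

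ENL works within complexes that promote transcription elongation, and its YEATS domain binds acylated lysines. Y78A replaces a tyrosine of that binding pocket with alanine. Bromodomains and double PHD fingers are separate acyl-lysine binding folds. Bromodomains hold acetylated lysine in a pocket with a conserved asparagine, whereas the double PHD finger accepts acetyl and longer acyl groups on histone H3. BET proteins carry tandem bromodomains and bring elongation factors to acetylated chromatin. BRD7 and BRD9 are subunits of different SWI/SNF remodelling complexes, BRD8 is a subunit of the NuA4/TIP60 acetyltransferase complex, and the DPF proteins are alternative subunits of the SWI/SNF complex BAF. DPF2 is widely expressed, whereas DPF1 is best known from neurons and DPF3 from muscle, heart and neurons.

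The bases before the outermost annotated start are shown for 5 of these genes, because the genes differ in what was listed there. ENL was listed within 1 kb of the starts of BRD2, BRD8 and BRD9. H3K9ac without ENL was listed at the start of DPF2, and DPF1 had no peak near either end. Sequences are from RefSeq (GRCh38.p14) and run 5′ to 3′ on the strand of the gene up to the base before the start. They are chr6:32968344-32968593 (plus strand) for BRD2, chr5:138178631-138178880 (minus) for BRD8, chr11:65333602-65333851 (plus) for DPF2 and chr19:38229696-38229945 (minus) for DPF1. For BRD9 only the 82 bases between its start and that of TRIP13 are shown, chr5:892802-892883 (minus).
BRD2: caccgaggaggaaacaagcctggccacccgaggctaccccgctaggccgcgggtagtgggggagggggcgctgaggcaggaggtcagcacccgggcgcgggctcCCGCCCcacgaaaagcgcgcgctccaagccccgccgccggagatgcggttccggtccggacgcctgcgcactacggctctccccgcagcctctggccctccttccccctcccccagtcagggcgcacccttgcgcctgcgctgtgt
BRD8: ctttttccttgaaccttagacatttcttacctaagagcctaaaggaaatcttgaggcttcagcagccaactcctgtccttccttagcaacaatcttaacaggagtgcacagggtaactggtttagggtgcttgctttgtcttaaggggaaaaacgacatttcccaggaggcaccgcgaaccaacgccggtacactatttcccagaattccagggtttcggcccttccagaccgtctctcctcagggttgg
BRD9: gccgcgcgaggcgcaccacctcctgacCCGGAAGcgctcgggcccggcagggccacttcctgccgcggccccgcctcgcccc
DPF2: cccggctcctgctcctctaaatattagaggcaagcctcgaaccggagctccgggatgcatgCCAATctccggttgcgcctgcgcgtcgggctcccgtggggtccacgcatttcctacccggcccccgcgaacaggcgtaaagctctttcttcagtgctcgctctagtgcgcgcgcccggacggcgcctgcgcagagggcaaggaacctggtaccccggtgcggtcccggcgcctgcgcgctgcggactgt
DPF1: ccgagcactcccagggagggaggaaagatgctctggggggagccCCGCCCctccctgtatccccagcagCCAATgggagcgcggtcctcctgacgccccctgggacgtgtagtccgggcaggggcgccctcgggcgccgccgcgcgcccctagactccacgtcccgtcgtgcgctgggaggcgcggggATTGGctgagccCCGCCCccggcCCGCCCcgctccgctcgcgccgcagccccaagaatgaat
Capitals mark matches, on either strand, to 6 motifs: GGGCGG (GC box), CCAAT (NF-Y core), CCGGAAG (ETS core), GCATGCG (NRF1 core), TGACGTC (CRE) and TATAAA (TBP core). A match on the other strand appears as its reverse complement, and no match overlapped one of another motif in these windows. Among 22199 promoter windows of protein-coding genes, each 250 bases long, GGGCGG was present in 53.7%, CCAAT in 32.7%, CCGGAAG in 10.7%, TATAAA in 9.005%, GCATGCG in 4.07% and TGACGTC in 3.73%. The windows of the reader genes differed in CG content. BRD8 had 7 CG dinucleotides in 250 bases, against a median of 16 over all windows, and held none of the 6 motifs. BRD2 had 27, DPF1 28 and DPF2 30, all above the upper quartile of 25. BRD9 had 32 in its full window, of which 12 lie in the stretch shown, where its single ETS core match also lies. ENL was listed near a CG-poor start (BRD8) as well as at CG-rich ones (BRD2 and BRD9). A CG-rich start (DPF1) had no peak of any list. The wild type ENL peak of BRD8, from 138178746 to 138179203, did not reach the BRD8 start and covered that of KIF20A, at 138179112. The CG content before the KIF20A start is not given here. These genes were chosen because their peaks differ, and whether CG content goes with ENL was not tested. A match is a description of letters and not a binding site.

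Wild type ENL was listed within 1 kb of a gene end at 5 of the 8 genes (BRD2, BRD3, BRD8, BRD9 and DPF2), against 28.6% of all protein-coding genes by the same rule. The wild type peaks of BRD8, BRD9 and DPF2 were also within 1 kb of a neighbouring gene. ENL Y78A was listed at 2 (BRD2 and BRD8), against 14.6%. H3K9ac was at 6 (BRD2, BRD7, BRD8, BRD9, DPF2 and DPF3), against 56.4%, and H3K9bhb was at 2 (BRD2 and BRD3), against 23.8%. H3K9cr was at 0, against 4.49%. When peaks inside the gene were counted too, only H3K9ac gained members and reached all 8 genes, against 64.8% of all genes. The other counts stayed at 5 for wild type ENL (35.9% of all genes), 2 for Y78A (19.1%), 2 for H3K9bhb (31.2%) and 0 for H3K9cr (9.34%). The H3K9bhb count is near its background. For a set this small, the gene-end counts of Y78A, H3K9ac and H3K9cr are also near theirs. With 8 genes and 1 library per group these counts had no test, no difference between libraries had a replicate check, and the counts moved with list length. When each list was limited to its 3852 strongest peaks by p, wild type ENL was left at the ends of BRD2 only, Y78A at BRD8 only, H3K9bhb at BRD2 only and H3K9ac at 0 of the 8 genes.

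**Figure D1:**
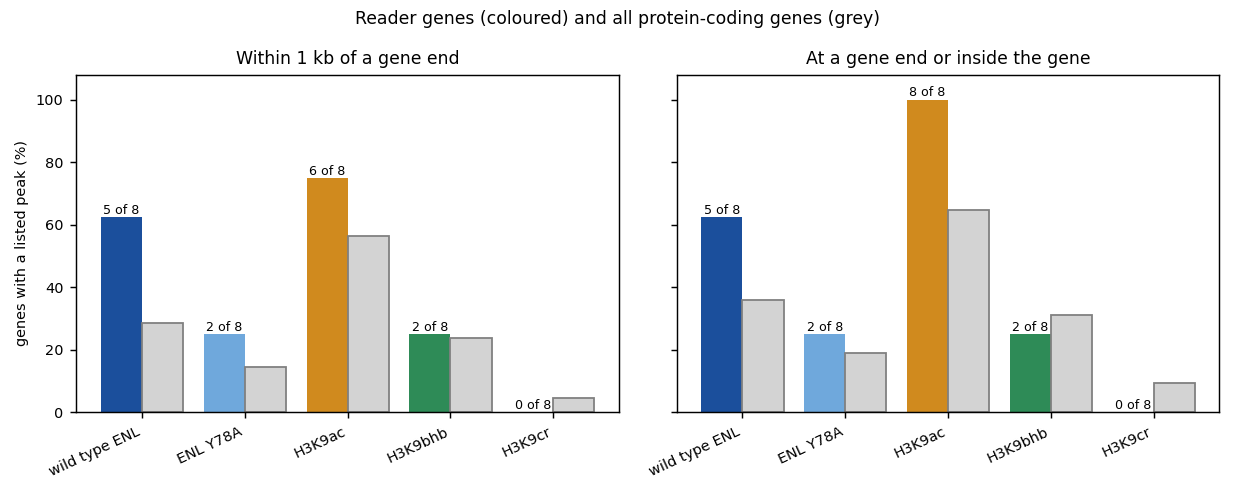
Percentage of genes with a listed peak (vertical axis, %) in each of the 5 lists, for peaks within 1 kb of a gene end (left) and at a gene end or inside the gene (right). Coloured bars are the 8 reader genes with their number above, and grey bars are all 20037 protein-coding genes. Wild type ENL stood at 5 of 8 under both rules, H3K9ac went from 6 to 8, and H3K9cr stayed at 0.

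Among the 5 genes with wild type ENL at an end, Y78A was listed at an end of 2, against 49.8% of all genes with wild type ENL there. H3K9ac was at 4 of the 5, against 98.0%, and H3K9bhb at 2 of the 5, against 71.3%. Conversely, 4 of the 6 genes with H3K9ac at an end had wild type ENL, against 49.7% of all genes with H3K9ac there. The 5 genes held 6 wild type ENL peaks in all. By direct overlap of at least 1 bp, 3 of these were on a Y78A peak, 4 on H3K9ac, 3 on H3K9bhb and 0 on H3K9cr. Over all 8121 wild type peaks at or in protein-coding genes, the shares were 42.7%, 84.3%, 61.5% and 15.4%. BRD2 and BRD8 supplied all 3 peaks with Y78A, and BRD2 and BRD3 all 3 with H3K9bhb.

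**Figure D2:**
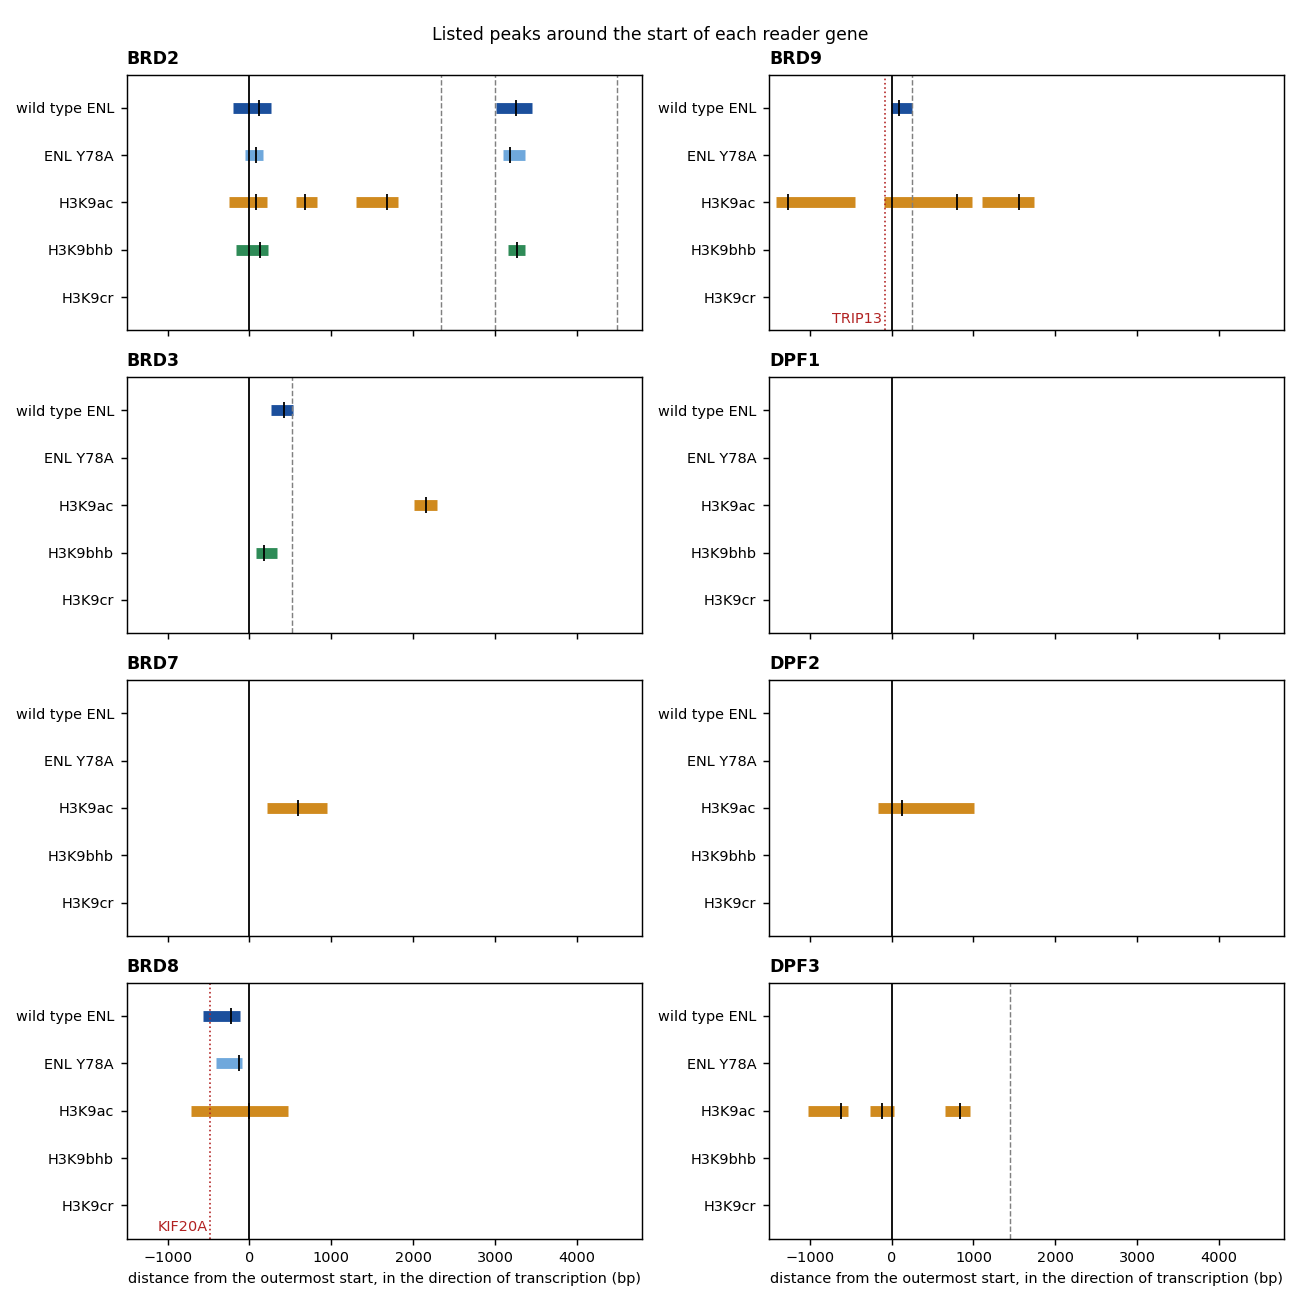
Listed peaks of the 5 libraries around the start of each gene, by distance in bp from the outermost annotated start in the direction of transcription (horizontal axis), with 1 row per library. Bars are peak intervals, black ticks summits, the solid line the outermost start, dashed lines other annotated starts, and red dotted lines the start of a neighbouring gene. BRD2 has peaks of wild type ENL, Y78A and H3K9bhb at 2 places, BRD3 has H3K9ac only about 2 kb inside the gene, and DPF1 has no peak in this range.

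BRD2, a BET gene on chromosome 6 (32968594 to 32981505, plus strand), had the most lists of the set, with 4 of 5 at its start. Wild type ENL lay from 32968393 to 32968857, with its summit 117 bp inside the gene. Its summit held 50 fragments (95% exact Poisson interval 37.1 to 65.9), and the caller's background estimate was 10.9 fragments. The deposited fold, which is summit fragments plus 1 over background plus 1, was 4.30. These whole numbers of fragments were recovered from the deposited fold and p, and their intervals cover counting error only, at a summit the caller chose as the highest point. At the same place Y78A had 23 fragments (14.6 to 34.5) over a background of 5.26 and a fold of 3.83. H3K9ac had 48 fragments (35.4 to 63.6) over 12.7, a 3.58-fold peak. H3K9bhb had 24 fragments (15.4 to 35.7) over 3.39, a 5.69-fold peak. The 4 summits lay between 77 and 131 bp inside the gene, and H3K9cr had no listed peak. The same combination of lists at gene ends was seen at 9.22% of all protein-coding genes.

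A further BRD2 site lay inside the gene, just past the annotated start that is 3001 bp from the outermost one. Wild type ENL lay there from 32971605 to 32972047, with 54 summit fragments (40.6 to 70.5) over a background of 11.4 and a fold of 4.42. Y78A had 30 fragments (20.2 to 42.8) over 5.51, a 4.76-fold peak. H3K9bhb had 15 fragments (8.40 to 24.7) over 3.68, a 3.42-fold peak of 208 bp, which is the smallest width in that list. H3K9ac was not listed at this site. Its nearest listed summit was 1682 bp from the outermost start, in a peak from 32969895 to 32970413 with 51 fragments and a fold of 3.50, and another H3K9ac peak lay between that one and the outermost start. The ENL and H3K9bhb peaks inside BRD2 thus lay outside the H3K9ac intervals, whereas at the outermost start wild type ENL and H3K9ac shared 421 bp.

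The rank of the BRD2 peaks depended on the measure. By fold, the wild type ENL peaks of BRD2 stood at percentiles 28.4 and 32.0 of their list, but by summit fragments they stood at 90.5 and 92.0. Their background estimates, 10.9 and 11.4, compare with a median of 3.66 over the wild type list. For Y78A the fold percentiles were 10.8 and 34.5 and the fragment percentiles 58.5 and 76.7, with backgrounds above the list median of 3.02. For H3K9bhb at the outermost start the order was reversed, with percentile 71.9 by fold and 62.8 by fragments. The H3K9bhb peak inside the gene was low by every measure, at percentile 6.22 by fold, 19.0 by fragments and 0.943 by p. Fragments are not compared between lists, because the sources used here give no read totals. BRD2 also lies in the major histocompatibility complex, a region for which hg38 has 7 alternate sequences. On these the H3K9ac list holds 541 peaks, the wild type ENL list 139, the Y78A list 59, the H3K9bhb list 51 and the H3K9cr list 5. Whether fragments of BRD2 were divided among them was not tested.

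By distance over the 5 within-list fold percentiles at gene ends, with 0 where no peak was listed, the genes most like BRD2 were TXN2, at a distance of 14.5, and NUDT3, at 14.9. BRD2 itself had 28.4 for wild type ENL, 10.8 for Y78A, 55.02 for H3K9ac and 71.9 for H3K9bhb. TXN2 had 33.4, 0, 58.9 and 64.6, and NUDT3 had 29.4, 20.9, 62.9 and 64.3. All 3 had 0 for H3K9cr. TXN2 thus had no Y78A peak at an end and NUDT3 had one.

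BRD3, the other BET gene of the set (chromosome 9, 134030305 to 134068548, minus strand), combined wild type ENL and H3K9bhb at its start with no H3K9ac near either end. Wild type ENL lay from 134068020 to 134068286, with 21 summit fragments (13.0 to 32.1) over a background of 4.08, a 4.33-fold peak. H3K9bhb lay from 134068211 to 134068468, with 23 fragments (14.6 to 34.5) over 4.08, a 4.73-fold peak. The peaks shared 76 bp and their summits were 249 bp apart, the H3K9bhb summit 178 bp and the ENL summit 427 bp inside the outermost start. The ENL summit lay 95 bp before the annotated start at 134068026. Gene-end peaks of exactly these 2 lists were found at 15 of 20037 genes (0.0749%). Of the 4090 genes with both wild type ENL and H3K9bhb at an end, 1.05% lacked H3K9ac at an end. H3K9ac accompanied H3K9bhb at 1 of the 2 reader genes with H3K9bhb (BRD2), against 98.6% of all genes with H3K9bhb at an end.

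H3K9ac was nonetheless listed inside BRD3. One peak lay from 134066258 to 134066543, with its summit 2162 bp inside the gene, 40 fragments (28.6 to 54.5) over a background of 15.7 and a fold of 2.45. The other lay from 134035570 to 134035840, with 17 fragments and a fold of 2.80. With windows of 2500 bp BRD3 is counted as an H3K9ac gene, so its rare combination depends on the distance used. The promoter window at 134068026 had 48 CG dinucleotides and 86.8% G and C, above 99.7% of all windows in CG number. The CG number of this window set the minimum for a group of 59 genes with at least 48 CG in a window, so BRD3 is among them. Of these genes, 57.6% had H3K9ac at an end, against 59.0% of the 15843 genes with a window. For H3K9bhb the shares were 13.6% and 25.5%, and for wild type ENL 30.5% and 30.6%. Whether CG number goes with the lists found at BRD3 was not tested.

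BRD8 (chromosome 5, 138139770 to 138178630, minus strand) is the NuA4/TIP60 subunit gene of the set. Both ENL proteins and H3K9ac were listed within 1 kb of its start, but not H3K9bhb. Its start lies 482 bp from that of KIF20A, a mitotic kinesin gene on the other strand. All 3 peaks were within 1 kb of both genes. Neither ENL peak reached the BRD8 start, and to which gene the peaks belong was not tested. Wild type ENL lay from 138178746 to 138179203, with 15 fragments (8.40 to 24.7) over a background of 2.45 and a fold of 4.63. Y78A lay from 138178725 to 138179043, with 14 fragments (7.65 to 23.5) over 1.52 and a fold of 5.96. H3K9ac was the widest peak of any reader gene, 1187 bp from 138178164 to 138179350, with 48 fragments (35.4 to 63.6) over 12.2 and a fold of 3.71. The ENL summits were upstream of BRD8, by 224 bp for wild type and 132 bp for Y78A, so they lay over the sequence printed above. This Y78A peak stood at percentile 70.3 of its list by fold and 15.3 by fragments. Gene-end peaks of wild type ENL, Y78A and H3K9ac without H3K9bhb or H3K9cr were found at 1.48% of all genes.

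BRD9 (chromosome 5, 863741 to 892801, minus strand) encodes a bromodomain subunit of the non-canonical SWI/SNF complex. It had wild type ENL and H3K9ac at its start and no Y78A or H3K9bhb. It too has a close neighbour, TRIP13, a gene for a mitotic checkpoint ATPase, whose start is 83 bp away. The wild type ENL peak was within 1 kb of both genes, and to which gene it belongs was not tested. Wild type ENL lay from 892558 to 892812, with 18 fragments (10.7 to 28.4) over a background of 2.60. Its fold of 5.28 was the highest wild type ENL fold among the 8 genes, at percentile 58.02 of the list. The summit was 89 bp inside BRD9, between annotated starts that are 251 bp apart. H3K9ac had 3 peaks around it, with folds of 3.15, 2.81 and 2.55 and 55, 48 and 48 summit fragments. Their summits lay 1554 and 798 bp inside BRD9 and 1269 bp upstream, on the TRIP13 side. ENL was thus listed between H3K9ac summits, and its interval lay wholly within the middle H3K9ac peak. Wild type ENL with H3K9ac and nothing else, the combination at BRD9 and DPF2, was found at 6.25% of all genes.

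BRD7, a bromodomain subunit of the PBAF form of SWI/SNF (chromosome 16, 50315957 to 50368988, minus strand), had only H3K9ac. The peak at its start, from 50368037 to 50368776, had 47 fragments (34.5 to 62.5) over a background of 14.7 and a fold of 3.06, with its summit 593 bp inside the gene. Another, deep inside the gene, had 18 fragments and a fold of 3.82. The fold was thus higher at the internal peak and the fragment number higher at the start. H3K9ac alone at a gene end was the combination of 24.7% of all genes.

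DPF2, the widely expressed double PHD gene (chromosome 11, 65333852 to 65354262, plus strand), had H3K9ac at both ends and wild type ENL at its far end only. At the start, H3K9ac lay from 65333689 to 65334855, with 43 fragments (31.1 to 57.9) over a background of 11.2 and a fold of 3.60. At the far end, wild type ENL lay from 65354474 to 65354877, wholly past the end of DPF2, with 32 fragments (21.9 to 45.2) over 8.11 and a fold of 3.62, the lowest wild type fold of the set. H3K9ac there had 44 fragments (32.0 to 59.1) over 14.2 and a fold of 2.97. Both far-end peaks lay wholly past DPF2 and overlapped TIGD3 (65354751 to 65357613), which lies 489 bp beyond DPF2. The H3K9ac summit, at 65355284, was inside TIGD3, and the ENL summit, at 65354695, lay between the genes. These peaks count for DPF2 by the 1 kb rule only, and to which gene they belong was not tested. Counting only the outermost start, wild type ENL was at 4 of the 8 genes, against 29.6% of the 15843 genes with a known strand, and none of the 4 was a DPF gene.

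DPF3, whose product binds acylated H3 through its double PHD finger (chromosome 14, 72609034 to 72894101, minus strand), had 4 H3K9ac peaks and no other. The peak over the outermost start, from 72894073 to 72894364, had 35 fragments (24.4 to 48.7) over a background of 6.61. Its fold of 4.73 was the highest H3K9ac fold of the set, at percentile 84.5 of that list. Flanking peaks on either side of the start, with summits 613 bp upstream and 832 bp inside, each had 25 fragments, at folds of 3.38 and 3.42. The remaining peak lay 168429 bp inside the gene, with 12 fragments and a fold of 4.05. DPF1 (chromosome 19, 38211006 to 38229695, minus strand) had a single peak, of H3K9ac, from 38223988 to 38224655. It lay 5306 bp inside the gene, with 33 fragments (22.7 to 46.3) over 8.45 and a fold of 3.60. No gene-end peak in any list was the state of 42.8% of all genes. DPF1 and DPF3 thus carried H3K9ac without ENL, as BRD7 did. DPF2 likewise had no ENL at its start or inside the gene.

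**Figure D3:**
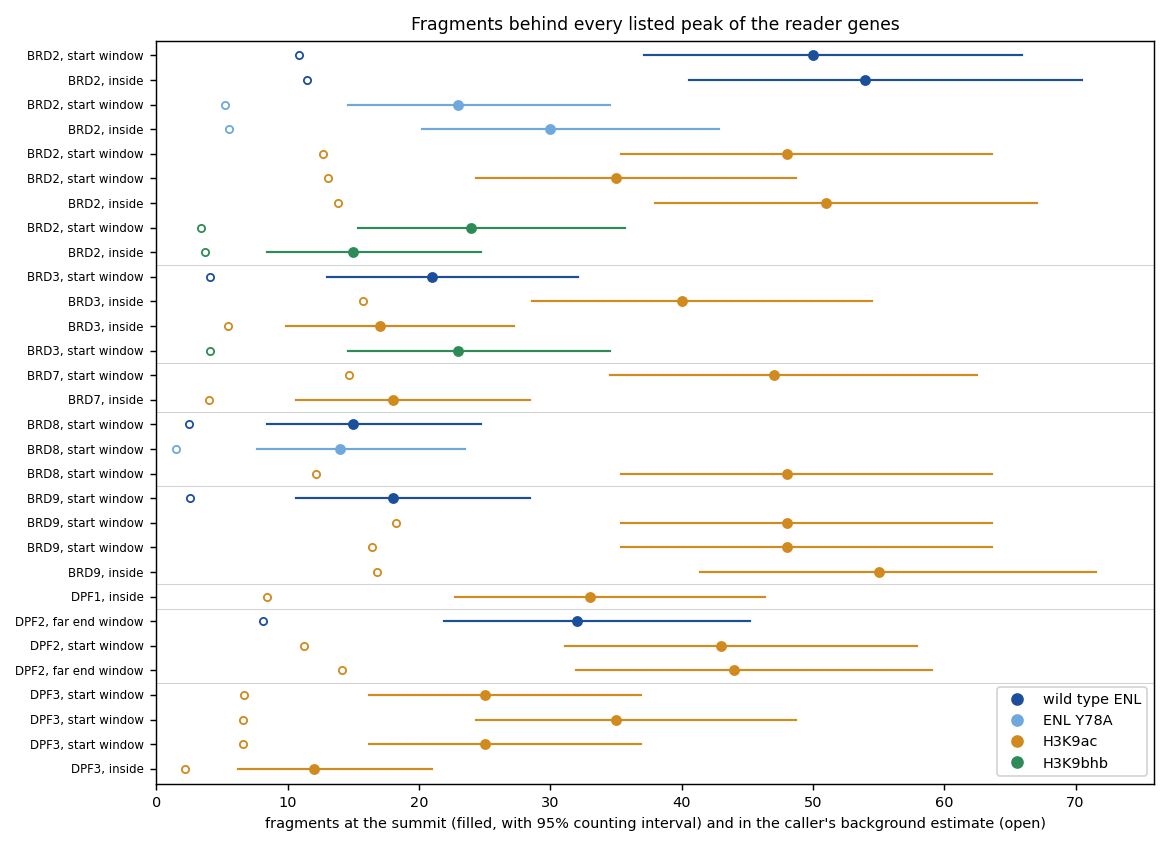
Fragments at the summit of each of the 30 listed peaks of the reader genes (filled points, with 95% Poisson intervals as lines) and in the caller's background estimate (open points), in numbers of fragments on the horizontal axis. Rows are peaks by gene and place, and colours are libraries, between which fragment numbers are not compared. The wild type ENL peaks of BRD2 hold 50 and 54 fragments, and those of BRD3, BRD8 and BRD9 between 15 and 21.

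Over the 8 genes the wild type list had 6 peaks, Y78A 3, H3K9ac 18 and H3K9bhb 3. The median fold of the wild type peaks was 4.38, against 5.01 for all wild type peaks at or in protein-coding genes, and the median width was 423.5 bp, against 403 bp. For Y78A the median fold was 4.76, against 5.21, for H3K9bhb 4.73, against 4.90, and for H3K9ac 3.40, against 3.39. The H3K9ac peaks ranged from 248 to 1187 bp in width and from 12 to 55 in summit fragments. At starts, wild type ENL summits lay 224 bp upstream (BRD8) to 427 bp inside (BRD3), with 3 of 4 inside the gene. These distances are from the outermost start, and the BRD3 summit lay 95 bp before the annotated start of that gene. Over all genes with a known strand 39.7% of wild type summits in start windows were inside and the median was 76 bp upstream. The 10 H3K9ac peaks in start windows of the reader genes had summits from 1269 bp upstream (BRD9) to 832 bp inside (DPF3). Over all genes, H3K9ac summits in start windows were inside the gene in 63.6% of cases, with a median of 97.5 bp inside.

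Genes of the complexes the readers belong to were examined from lists chosen by function. The shares of all protein-coding genes with a gene-end peak, for reading the counts that follow, are 28.6% for wild type ENL, 14.6% for Y78A, 56.4% for H3K9ac, 23.8% for H3K9bhb and 4.49% for H3K9cr. Of 23 other SWI/SNF genes, 13 had a gene-end peak of wild type ENL, 6 of Y78A, 21 of H3K9ac, 13 of H3K9bhb and 4 of H3K9cr. The median wild type fold of the 13 was 5.01, against 5.24 over all genes with such a peak. PBRM1, the PBAF subunit with many bromodomains, led with a 6.96-fold wild type peak, followed by ARID2, another PBAF subunit, at 6.84-fold and SMARCC1, a core subunit, at 6.18-fold. These 3 genes were named for their high wild type folds, and all had Y78A and H3K9bhb. Of all 13 SWI/SNF genes with wild type ENL, 6 had Y78A. BRD7, also of PBAF, had neither ENL nor H3K9bhb. SS18, a subunit shared by BAF and the non-canonical complex, stood at 6.10-fold and had no Y78A peak.

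Of 16 NuA4/TIP60 genes, 11 had a gene-end peak of wild type ENL, 6 of Y78A, 16 of H3K9ac, 9 of H3K9bhb and 1 of H3K9cr, with a median wild type fold of 5.24. The H3K9cr count is near its share of 4.49% over all genes. MBTD1, a subunit with MBT repeats, had a 9.54-fold wild type peak and was the gene with H3K9cr. MORF4L2, an MRG-family protein, stood at 8.83-fold, EPC2, a scaffold subunit, at 6.20-fold, and YEATS4, which like ENL has a YEATS domain, at 6.46-fold. Of these 4, also named for their high wild type folds, YEATS4 alone had no Y78A peak, and all 4 had H3K9bhb. With wild type ENL at 11 of the 16 genes and H3K9bhb at 9, BRD8 was not alone in having ENL without H3K9bhb. Of 35 other bromodomain or double PHD genes, 18 had wild type ENL, 14 Y78A, 15 H3K9bhb, 28 H3K9ac and 5 H3K9cr. Their median wild type fold was 6.62. BRWD1 led at 9.92-fold, with a peak in all 5 lists. The acetyltransferase gene EP300 stood at 8.68-fold with Y78A and H3K9bhb, the scaffold gene BRPF1 at 8.37-fold with a peak in all 5 lists, and KAT6B, which has a double PHD finger, at 8.16-fold with H3K9ac only beside ENL.

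**Figure D4:**
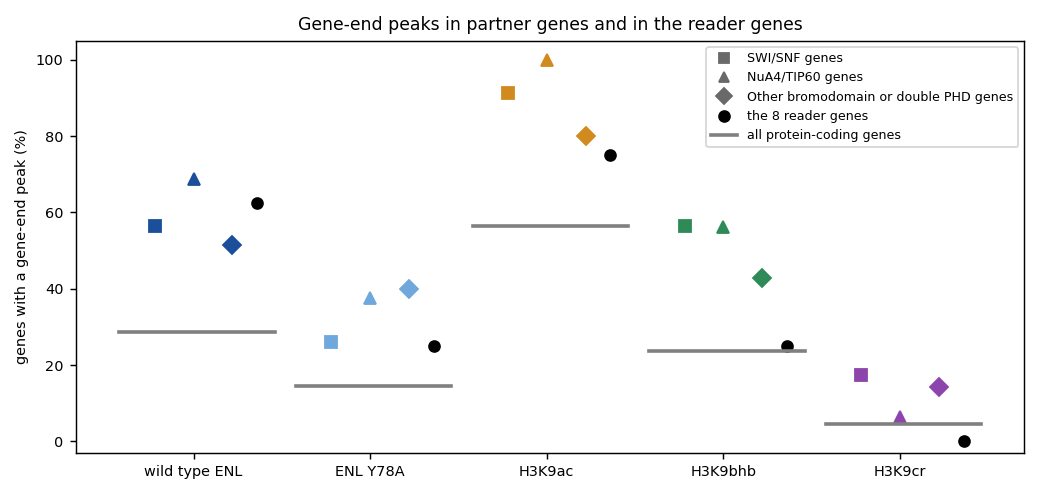
Percentage of genes with a gene-end peak (vertical axis, %) in each list, for SWI/SNF, NuA4/TIP60 and other bromodomain or double PHD genes (coloured symbols), the 8 reader genes (black points) and all protein-coding genes (grey lines). In H3K9bhb the reader genes, at 2 of 8, lie near the grey line, while 13 of 23 SWI/SNF genes had a peak.

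The cell line label was checked against marker genes. H3K9ac was at an end of 10 of 15 hepatocyte markers, including HNF4A, FOXA2 and APOA1, against 56.4% of all protein-coding genes, a share too near to these 10 to identify the cells by itself. It was not at ALB, AFP, SERPINA1, TTR or ONECUT1. Of the other markers it was at 0 of 6 blood, 0 of 5 muscle, 0 of 4 fibroblast and 1 of 5 neuron markers (TUBB3). Over whole lists, the median number of summit fragments was 33 for H3K9ac, 23 for wild type ENL, 22 for H3K9cr, and 21 for Y78A and for H3K9bhb.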

How the data were processed

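HepG2 CUT&Tag libraries were deposited as 1 MACS2-style peak list each. Per the submitters' processing notes, the tools were FastQC, Bowtie2, MACS2 and deepTools and the build was hg38, and no versions or settings are given there. The sources used here do not name the control, the handling of duplicates or the threshold. The deposited fold (a ratio), the deposited −log10 p and q and the deposited score (10 times −log10 q) are the authors' values, and the smallest −log10 q was 1.31 for H3K9ac, 1.34 for H3K9cr, and 2.02 (H3K9bhb) to 2.05 (wild type ENL) for the rest. The lists therefore differ in threshold, and folds were ranked within a list only. A looser threshold or deeper library can list more peaks, but the H3K9cr list, with a smallest −log10 q of 1.34, was the shortest. What sets the length of each list was not tested.

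Only the 24 standard chromosomes entered, with 31493 peaks of H3K9ac, 11394 of wild type ENL, 9176 of H3K9bhb, 5422 of Y78A and 3852 of H3K9cr. Peaks overlapping a gene or the 1 kb around its ends were assigned to it. Strand came from the RefSeq promoter table, which covers 15843 of the 20037 genes. Whole summit fragments and backgrounds were recovered for at least 99.98% of peaks, within a relative tolerance of 3e-05. The assignment, overlap and recovery code was tested on simulated data and against bedtools 2.31.1. Python 3.11.15, pandas 2.3.3, scipy 1.17.1 and matplotlib 3.10.9 were used. The member genes, gene lists, motifs and rules were chosen with earlier results of these data known. Named genes were all 8 members, up to 4 genes of each partner list with the highest wild type fold, genes sharing a member's peak, and the 2 genes nearest in pattern to the member with the most lists. Alternatives were a stricter q, equal list length, windows of 500 and 2500 bp, summit assignment, 50% overlap and the start end only.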

Additional observations from a re-analysis of the deposited data

Results flagged for a closer look

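Peaks on the 7 alternate sequences of the major histocompatibility complex, the region of BRD2, were not used in any comparison. They are given for each list with more than 3 of them, which is a rule for reporting unused data and not a test. The H3K9ac list has 541 of them, the wild type ENL list 139, the Y78A list 59, the H3K9bhb list 51 and the H3K9cr list 5. Which of them, if any, belong to BRD2 was not tested.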

How the results depend on the processing

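Of 154 recomputed counts, 133 stayed within 1.5 times the reported one. Equal list length, which shortens 4 of the 5 lists, moved 18 of 30. Reader genes with a gene-end peak then numbered 1 in wild type ENL, 1 in H3K9bhb, 1 in Y78A and 0 in H3K9ac, and with peaks inside the gene counted 1 in wild type ENL, 0 in H3K9ac and 1 in H3K9bhb. Of their wild type ENL peaks 2 were left, both in BRD2, with 1 on Y78A, 0 on H3K9ac and 1 on H3K9bhb. SWI/SNF genes numbered 5 in wild type ENL, 7 in H3K9ac and 5 in H3K9bhb, NuA4/TIP60 genes 6 in wild type ENL and 4 in H3K9ac, and other bromodomain or double PHD genes 10 in H3K9ac and 8 in H3K9bhb. In H3K9cr, NuA4/TIP60 genes numbered 0 with windows of 500 bp and 2 with 2500 bp, and other bromodomain or double PHD genes 3 at a −log10 q of at least 3. Summit assignment, 50% overlap and the start end only moved none of the counts they were run on beyond 1.5 times. The 3 wild type ENL peaks of the reader genes on H3K9bhb became 2 with 50% overlap, where BRD3, with 76 bp shared, was lost. They also became 2 at a −log10 q of at least 3, where the H3K9bhb peak inside BRD2, at 2.76, was lost. No paired analysis was possible because each group has 1 library, and no replicate could be left out. Read totals are not given, so a place without a listed peak may lie just under a list's threshold.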
